A study of Mus musculus with 12 samples.

Results

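RNA of 10 genes of the Schwann cell basal lamina and its receptors was followed in mouse sciatic nerve. They were chosen by name, as laminin chains and laminin receptors, and all 10 were found among the 43432 genes of the count table and passed the filter on low counts. The laminin chains are the α chains *Lama2*, *Lama4* and *Lama5*, the β chains *Lamb1* and *Lamb2* and the γ chain *Lamc1*, the integrin subunits are *Itga6*, *Itga7* and *Itgb4*, and *Dag1* encodes dystroglycan. RNA was sequenced from 12 mice at an age of 1 month, 4 per group, with 1 library per mouse and 3 males and 1 female in each group. WT control mice (*Mtmr2* wt/wt, libraries 4497 to 4500) and *Mtmr2* KO mice (*Mtmr2* -/-, libraries 4501 to 4504) are listed in the labels with no treatment, although the study's text calls the *Mtmr2* KO mice vehicle treated, so untreated here means without niacin. Niacin-treated *Mtmr2* KO mice (*Mtmr2* -/-, libraries 4505 to 4508) received niacin intraperitoneally at 120 mg/kg from postnatal day 10 to day 21 and then slow-release niacin by gavage to day 30. The *Mtmr2* KO line has a 129/SvPas background. No niacin-treated WT mice were analysed here, and the *Mtmr2* null allele is not restricted to Schwann cells.

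A basal lamina is the thin sheet of extracellular matrix that a Schwann cell lays down around itself and its axon. Laminins are its organizing proteins, each a trimer of an α, a β and a γ chain joined in the endoplasmic reticulum before secretion. Laminin-211 (*Lama2*, *Lamb1*, *Lamc1*) is the main laminin of the Schwann cell basal lamina, and chains containing *Lama4* are also made there, whereas *Lama5* and *Lamb2* are also known from other basement membranes such as those of vessels. On the Schwann cell surface, laminins are bound by integrin α6β1, α7β1 and α6β4 and by dystroglycan. Loss of *Lama2* or *Lamc1* in the mouse impairs axonal sorting and myelination, and *Itgb4* and *Dag1* act in mature myelinated fibres, where dystroglycan is tied to periaxin and Drp2 in the outer Schwann cell surface. Several of these genes are used by other cells of a nerve sample too, such as endothelium and, for *Lama2*, *Itga7* and *Dag1*, skeletal muscle.

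In the niacin-treated *Mtmr2* KO mice, all 10 genes had a lower mean level than in WT control, and for 6 of them (*Lama5*, *Lamb2*, *Lamc1*, *Itga7*, *Itgb4* and *Dag1*) all 4 treated libraries lay below all 4 WT control libraries, which held for 16.6% of all tested genes. After a correction of each library for base composition and transcript length, 9 of the 10 were lower, and their median log2 fold change was −0.37 in place of −0.67. None of the 10 passed the test (adjusted p under 0.05 by the method of Benjamini and Hochberg, BH, in an edgeR quasi-likelihood fit over 12 libraries) in any of the 3 comparisons, in which 0.267% (*Mtmr2* KO versus WT control), 1.43% (niacin-treated versus untreated *Mtmr2* KO) and 0.00% (niacin-treated *Mtmr2* KO versus WT control) of all tested genes did. The widest differences were those of *Dag1*, at 554 ± 182 CPM (SD, n = 4) with niacin against 1221 ± 213 CPM in WT control, of *Lama5*, at 54.97 ± 18.0 against 102 ± 15.2 CPM, and of *Itgb4*, at 264 ± 63.6 against 479 ± 73.8 CPM. *Lama2*, *Lama4* and *Lamb1* stood closest to WT control, with overlapping groups. CPM scales the reads counted on a gene to the total of its library, after scaling of the libraries by the TMM method.

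The promoters shown are those of *Lama5* and *Dag1*, which had the 2 largest log2 fold changes from WT control under niacin before any correction for base composition, and that of *Lama2*, which had the smallest. RefSeq windows (GRCm38.p6) were matched to 5 of the 10 genes, and the 150 bases before the start of transcription are printed where no annotated exon of the gene overlaps them. They are written 5′ to 3′ on the strand of the gene, all on the − strand, with capitals marking each GC box, the hexamer GGGCGG or its reverse complement, the letters that Sp-family factors are known to bind.
*Lama5* (chr2:180225860-180226009): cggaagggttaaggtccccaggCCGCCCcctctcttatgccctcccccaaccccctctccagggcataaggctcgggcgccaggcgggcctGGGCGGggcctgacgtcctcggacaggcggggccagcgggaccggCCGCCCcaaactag
*Dag1* (chr9:108263959-108264108): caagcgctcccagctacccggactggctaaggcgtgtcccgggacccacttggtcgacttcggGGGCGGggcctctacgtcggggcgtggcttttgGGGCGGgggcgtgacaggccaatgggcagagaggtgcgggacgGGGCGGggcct
*Lama2* (chr10:27616943-27617092): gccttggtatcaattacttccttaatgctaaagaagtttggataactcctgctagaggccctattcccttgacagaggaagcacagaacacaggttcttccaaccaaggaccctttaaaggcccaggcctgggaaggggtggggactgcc
The window of *Lama5* held 3 GC boxes and that of *Dag1* held 3, whereas that of *Lama2* held 0. Of the windows not printed, that of *Lamb1* held 2, that of *Lamb2* held 0 and that of the other RefSeq start of *Dag1* held 0. Of 32851 RefSeq windows of the same length, 28.6% held at least 1 and 5.57% held at least 3. The *Lama5* and *Dag1* windows were 73.3% and 72.0% G and C, against 50.7% for *Lama2*. The hexamer CATTCC, known as a TEAD motif, and the hexamer CACGTG were also searched on both strands and were not in these 3 windows, and they stood in 7.59% and 4.30% of all windows. The other start of *Dag1* has a window that overlaps its first exon, and the start listed for *Lama2* lies within the gene as GENCODE draws it.

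Libraries held between 20763951 and 33191106 counts, of which the 10 genes together took 0.255% to 0.681%. The lowest count of any of them in any library was 577 (*Lama5*), so counting error was small beside the spread between mice. *Mtmr2* itself, the gene of a phospholipid phosphatase, was at 128 to 161 CPM in WT control and at 66.8 to 84.7 CPM in 7 of the 8 libraries labelled *Mtmr2* KO, but the library labelled *Mtmr2* KO 4503 had 143 CPM, within the WT control range. Library *Mtmr2* KO 4502 stood apart in the 10 genes. It was the lowest of its group for all 10 and the lowest of all 12 libraries for 6, with a median log2 difference from the WT control mean of −1.11, against −0.01, 0.21 and −0.27 in libraries 4501, 4503 and 4504. It was also the 1 library of its group with the high *Xist* level of a female, at 686.9 CPM, as were WT control library 4498 (545.0 CPM) and niacin-treated library 4506 (584.8 CPM), against 2.12 to 5.99 CPM in the other 9, so that its low values and its sex cannot be told apart within *Mtmr2* KO. Results of comparisons with *Mtmr2* KO are therefore given with and without these libraries. The same median was −0.63, −0.39, −0.61 and −0.99 in niacin-treated libraries 4505 to 4508 and between −0.25 and 0.24 in WT control. In WT control library 4498, with the *Xist* level of a female, it was −0.08.

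Library 4502 and the niacin-treated libraries also differed from WT control over all tested genes by transcript length and base composition. Genes with a longest transcript of up to 1 kb had a median log2 difference from the WT control mean of 0.77 in library 4502 and of 0.20 to 0.53 in the niacin-treated libraries, and genes over 4 kb and up to 8 kb one of −0.21 and of −0.14 to −0.06. *Mtmr2* KO library 4504 (0.27 and −0.08) and WT control library 4500 (0.18 and −0.07) lay close to the least shifted niacin-treated library, 4506 (0.20 and −0.06), and the other 5 libraries were between −0.07 and 0.03 for the short transcripts. The 10 genes have longest transcripts of 4020 to 11388 bases, against a median of 3127 over all tested genes. Between niacin-treated *Mtmr2* KO and WT control, genes over 55% G and C had a median log2 fold change of −0.29 (3666 genes) and genes up to 45% one of 0.21 (4385 genes). *Itga7*, *Lamb2*, *Lama5* and *Itgb4* have transcripts of 57.8% to 60.0% G and C, *Lamb1*, *Dag1* and *Lamc1* of 52.5% to 53.0%, and *Lama2*, *Itga6* and *Lama4* of 47.7% to 50.0%. Values from a fit in which each library was corrected for both properties are given after the uncorrected ones.

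**Figure D1:**
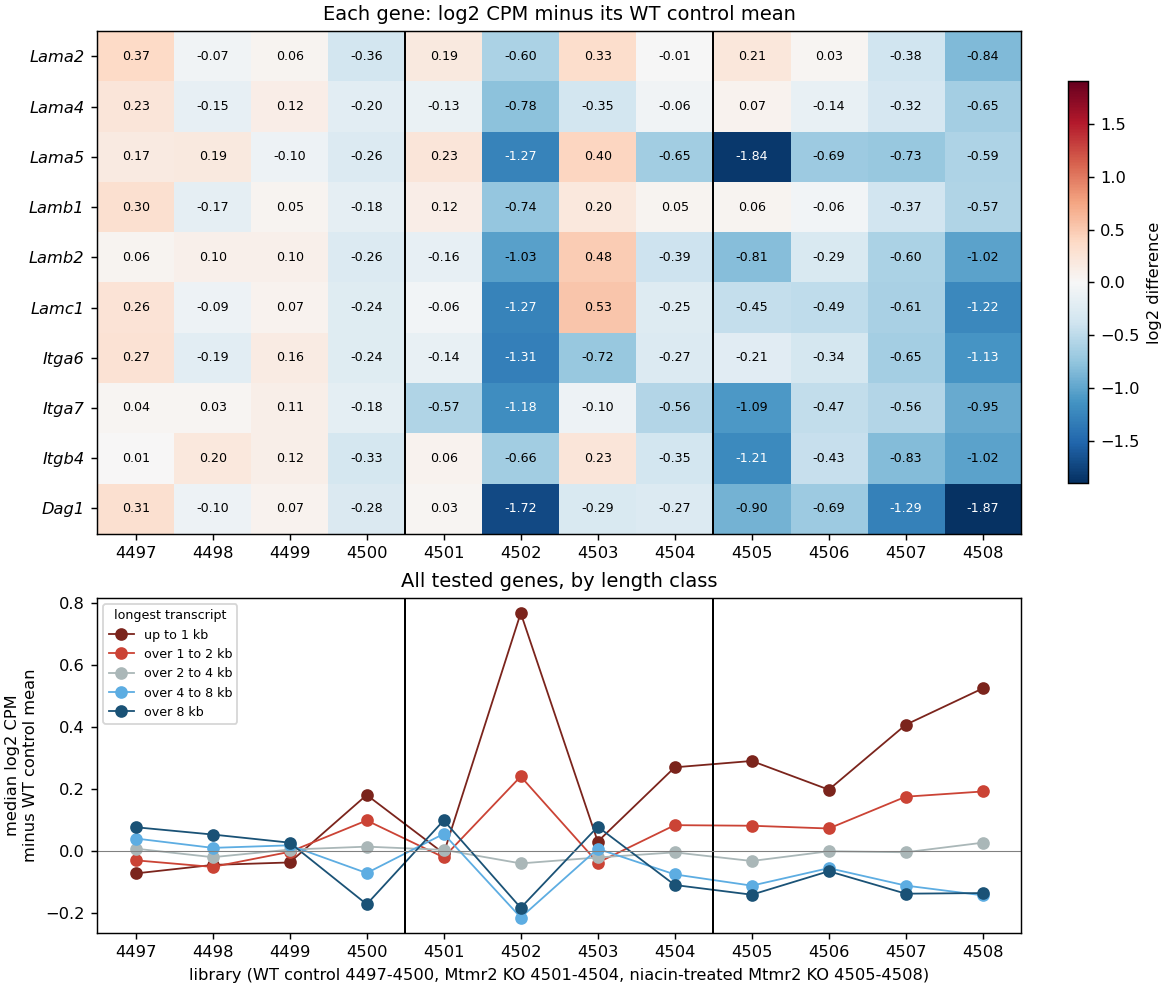
The upper panel gives, for each gene (rows) and library (columns), the log2 CPM minus the gene's WT control mean, and the lower panel the median of the same difference over all tested genes in 5 classes of longest transcript. Library 4502 and the 4 niacin-treated libraries are low for most of the 10 genes and high for short transcripts, and in library 4502 the median of transcripts up to 1 kb is 0.77.

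All 12 libraries had the RNA of nerve. The summed level of the 10 markers of myelinating Schwann cells was 87520 to 112600 CPM in WT control, 84030 to 115400 in untreated and 61280 to 100900 in niacin-treated *Mtmr2* KO, and all 10 were detected. In bulk nerve RNA, fewer cells of a type and less RNA per cell cannot be told apart. The 8 endothelial markers summed to 685 to 724 CPM in WT control, to 293 to 856 in *Mtmr2* KO, with the lowest value in library 4502, and to 336 to 513 in niacin-treated mice, below every WT control library. The 10 skeletal muscle markers summed to 17.9 to 71.6 CPM in WT control and 14.6 to 65.3 in *Mtmr2* KO, but to 73.0, 3615, 3612 and 115 CPM in niacin-treated libraries 4505, 4506, 4507 and 4508. The 4 perineurial markers spanned 438 to 598, 471 to 642 and 426 to 536 CPM in the 3 groups, the 6 markers of non-myelinating Schwann cells 450 to 557, 588 to 906 and 524 to 748 CPM, the 7 fibroblast markers 11620 to 17570, 7990 to 12450 and 11160 to 19010 CPM, the 8 markers of vascular smooth muscle and pericytes 1343 to 1938, 1190 to 1971 and 1053 to 1645 CPM, the 8 adipocyte markers 2626 to 3451, 763 to 4599 and 2201 to 4469 CPM, and the 6 macrophage markers 519 to 578, 462 to 1083 and 610 to 861 CPM. No marker was at 0 in all libraries, and the part of these cell types in the results was not tested.

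In WT control nerve, levels were compared between the genes per length, as CPM per kb of merged exons. *Dag1* was the most abundant at 192 ± 33.5 CPM per kb (SD, n = 4), above *Lamc1* in every library with ranges that did not overlap. *Lamc1* at 117 ± 17.3, *Itga6* at 95.8 ± 16.8, *Lamb1* at 82.1 ± 13.2, *Lamb2* at 78.5 ± 8.87 and *Itgb4* at 68.3 ± 10.5 CPM per kb followed, and each of these overlapped its neighbour in this order. A gap without overlap then led to *Lama4* at 32.1 ± 4.64, *Lama2* at 30.02 ± 6.31 and *Itga7* at 23.8 ± 1.99 CPM per kb, again with overlapping neighbours, and *Lama5* was lowest at 8.98 ± 1.34 CPM per kb, apart from *Itga7*. *Lamc1* thus exceeded each of the 3 α chains in RNA per length of merged exons, and the ranges of the β chains *Lamb1* and *Lamb2* overlapped on that scale. The order and the overlaps depend on the length used. Merged exons of *Lamb1* span 9917 bases and those of *Itga6* 9025, against longest transcripts of 5784 and 4310. For *Lamb2* the lengths are 6082 and 5629. Levels per longest transcript were not compared. Of the RNA of the 3 α chains per length, *Lama2* made up 42.0% ± 2.05, *Lama4* 45.3% ± 2.43 and *Lama5* 12.7% ± 1.75 in WT control (SD, n = 4). These shares depend on the length too. Merged exons span 16338 bases for *Lama2* and 12068 for *Lama4*, against longest transcripts of 9614 and 6046, while for *Lama5* each length is 11388.

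*Lama2* (ENSMUSG00000019899, chromosome 10 of GRCm38 from 26980036 to 27619758, − strand), the α2 chain of laminin-211, was at 624, 459, 502 and 377 CPM in WT control. It was at 549, 319, 608 and 481 CPM in *Mtmr2* KO and at 558, 494, 371 and 269 CPM in niacin-treated mice. The 3 groups overlapped throughout. The log2 fold change was −0.00 for *Mtmr2* KO versus WT control (95% interval −0.54 to 0.53), −0.21 for niacin-treated versus untreated *Mtmr2* KO (−0.75 to 0.33) and −0.21 for niacin-treated *Mtmr2* KO versus WT control (−0.75 to 0.32). *Lama4* (ENSMUSG00000019846, chromosome 10 from 38965515 to 39110188, + strand), the α4 chain, was at 451, 345, 418 and 336 CPM in WT control, 351, 224, 302 and 368 CPM in *Mtmr2* KO and 403, 348, 308 and 245 CPM in niacin-treated mice. Its groups overlapped too, with log2 fold changes of −0.32 (−0.73 to 0.10), 0.07 (−0.35 to 0.48) and −0.25 (−0.66 to 0.16) in the same order of comparisons. After the correction for GC content and length, the 3 values were 0.04, −0.13 and −0.09 for *Lama2* and −0.24, 0.16 and −0.08 for *Lama4*.

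*Lama5* (ENSMUSG00000015647, chromosome 2 from 180176373 to 180225859, − strand), the α5 chain, was at 114, 116, 94.6 and 84.6 CPM in WT control. It was at 119, 41.9, 134 and 64.4 CPM in *Mtmr2* KO and at 28.3, 62.9, 61.2 and 67.5 CPM in niacin-treated mice. The treated libraries lay below all WT control libraries, and the *Mtmr2* KO libraries spread over both, with 4501 and 4503 above every WT control library. Niacin-treated *Mtmr2* KO differed from WT control by a log2 fold change of −0.90 (SE 0.33, 95% interval −1.61 to −0.18), which missed the threshold (adjusted p = 0.145, BH-adjusted edgeR quasi-likelihood test), and from untreated *Mtmr2* KO by −0.71 (−1.42 to 0.00). With the correction these became −0.40 and −0.35. Among the α chains *Lama5* had the widest spread, where the SD on the log2 scale was 0.79 in *Mtmr2* KO and 0.59 with niacin, against 0.22 in WT control. Its share of the α chain RNA per length was 11.9% ± 3.74 in untreated and 9.0% ± 4.28 in niacin-treated *Mtmr2* KO (SD, n = 4), from 3.55% in library 4505 to 13.9% in library 4508.

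*Lamb1* (ENSMUSG00000002900, chromosome 12 from 31265234 to 31329644, + strand), the β1 chain of laminin-211, was at 991, 717, 834 and 714 CPM in WT control. It was at 879, 483, 926 and 836 CPM in *Mtmr2* KO and at 838, 775, 624 and 542 CPM in niacin-treated mice. All groups overlapped, with log2 fold changes of −0.06 (95% interval −0.53 to 0.41), −0.17 (−0.64 to 0.30) and −0.23 (−0.70 to 0.24) for *Mtmr2* KO versus WT control, niacin-treated versus untreated *Mtmr2* KO and niacin-treated *Mtmr2* KO versus WT control. *Lamb2* (ENSMUSG00000052911, chromosome 9 from 108479736 to 108490530, + strand), the β2 chain, which takes the place of β1 in other laminins, was at 494, 510, 508 and 397 CPM in WT control. It was at 425, 232, 664 and 363 CPM in *Mtmr2* KO and at 272, 389, 313 and 234 CPM in niacin-treated mice. Here every treated library lay below every WT control library, although the highest treated library, 4506 at 389 CPM, lay just below the lowest WT control library, 4500 at 397 CPM. The log2 fold change against WT control was −0.66 (SE 0.26, −1.22 to −0.10, BH-adjusted p = 0.161 in edgeR), and that against untreated *Mtmr2* KO was −0.48 (−1.04 to 0.08). Corrected for GC content and length, niacin-treated *Mtmr2* KO differed from WT control by 0.01 for *Lamb1* and −0.20 for *Lamb2*, and from untreated *Mtmr2* KO by −0.02 and −0.19.

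*Lamc1* (ENSMUSG00000026478, chromosome 1 from 153218922 to 153332786, − strand), the γ1 chain of laminin-211, was at 1148, 902, 1005 and 815 CPM in WT control. It was at 923, 399, 1388 and 808 CPM in *Mtmr2* KO and at 700.3, 684, 629 and 411 CPM in niacin-treated mice. *Mtmr2* KO held both the highest (4503) and the lowest (4502) of the 12 libraries, and the treated libraries lay below all WT control libraries. The log2 fold change was −0.14 for *Mtmr2* KO versus WT control (95% interval −0.78 to 0.50), −0.54 for niacin-treated versus untreated *Mtmr2* KO (−1.18 to 0.10) and −0.67 for niacin-treated *Mtmr2* KO versus WT control (−1.32 to −0.03, adjusted p = 0.189, BH-adjusted edgeR quasi-likelihood test). The corrected values were −0.06, −0.33 and −0.39.

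**Figure D2:**
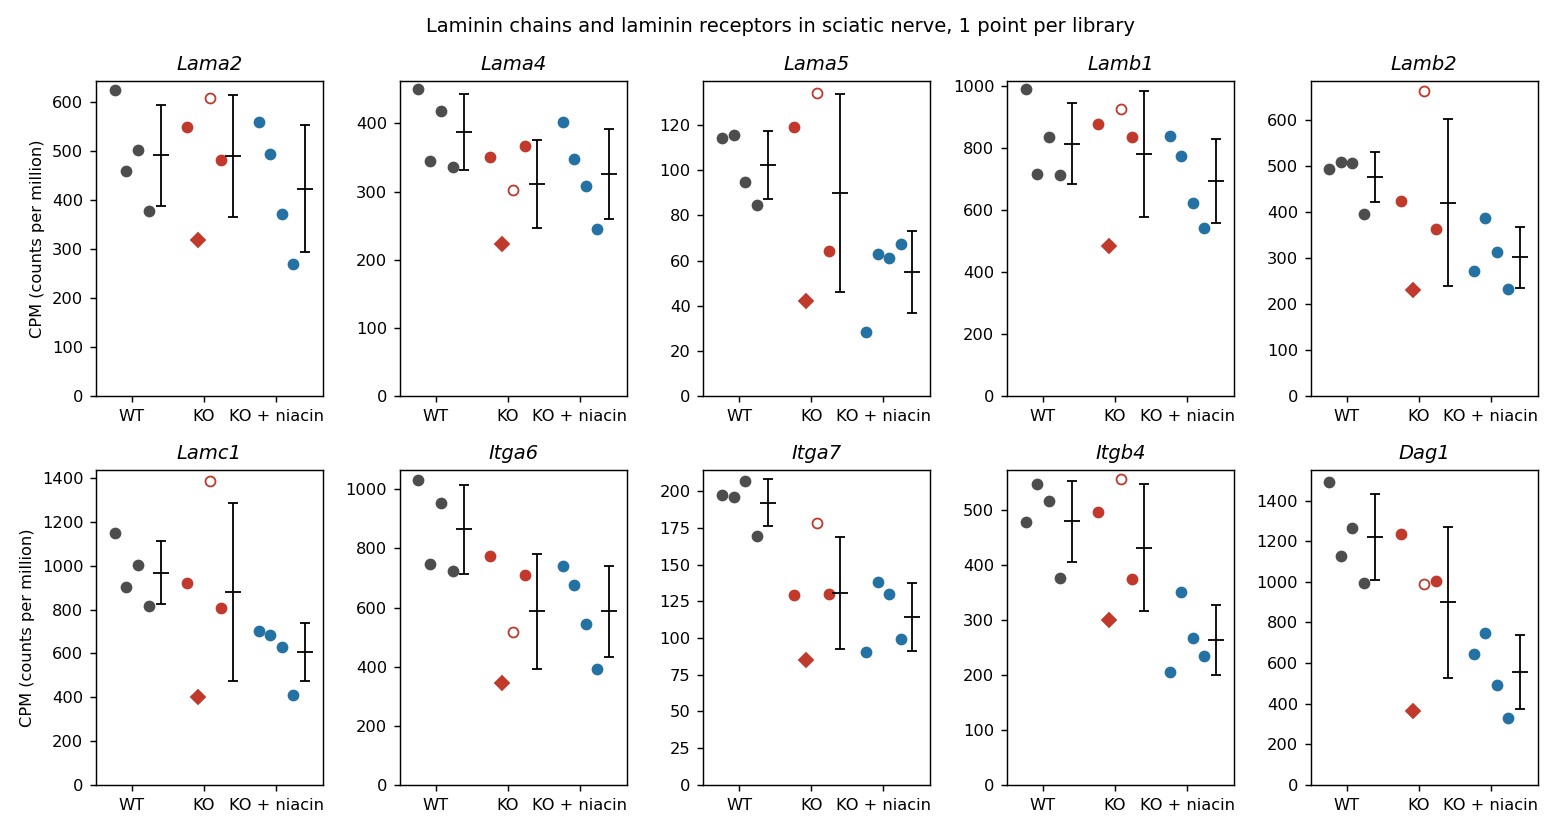
Each point is the CPM of 1 library, in library order within WT control (WT), Mtmr2 KO (KO) and niacin-treated Mtmr2 KO (KO + niacin), and bars give the mean ± SD (n = 4). The diamond is library 4502 and the open circle library 4503. For *Lama5*, *Lamb2*, *Lamc1*, *Itga7*, *Itgb4* and *Dag1* the 4 treated libraries lie below the 4 WT control libraries.

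Among the receptors, *Itga6* (ENSMUSG00000027111, chromosome 2 from 71745616 to 71858416, + strand), whose product pairs with β1 or β4, was at 1032, 747, 953 and 725 CPM in WT control. It was at 776, 346, 517 and 710 CPM in *Mtmr2* KO and at 739, 676, 545 and 391 CPM in niacin-treated mice. Its mean was lower in both groups of *Mtmr2* KO mice to a like degree, with overlap, and the log2 fold change was −0.56 for *Mtmr2* KO versus WT control (95% interval −1.11 to −0.00, adjusted p = 0.287, BH-adjusted edgeR quasi-likelihood test), 0.00 for niacin-treated versus untreated *Mtmr2* KO (−0.55 to 0.55) and −0.56 for niacin-treated *Mtmr2* KO versus WT control (−1.11 to −0.00). *Itga7* (ENSMUSG00000025348, chromosome 10 from 128933818 to 128958282, + strand), the α subunit of integrin α7β1, was at 197, 196, 207 and 169 CPM in WT control, a narrow range. It was at 129, 84.7, 179 and 130.1 CPM in *Mtmr2* KO and at 90.3, 138, 130 and 99.0 CPM in niacin-treated mice. Only library 4503 of the 8 libraries labelled *Mtmr2* KO reached the WT control range. The log2 fold change was −0.56 for *Mtmr2* KO versus WT control (SE 0.20, −0.99 to −0.12, BH-adjusted p = 0.193 in edgeR) and −0.75 for niacin-treated *Mtmr2* KO versus WT control (SE 0.20, −1.19 to −0.31, adjusted p = 0.0936), while the treated and untreated *Mtmr2* KO groups differed by −0.19 (−0.63 to 0.24). The libraries with the most muscle marker RNA, 4506 and 4507, had more *Itga7* than the other 2 treated libraries. *Lama2* and *Dag1* did not follow that order, at 558 and 646 CPM in library 4505 against 371 and 494 CPM in library 4507. The summed endothelial markers were also higher in 4506 and 4507 (513 and 473 CPM) than in 4505 and 4508 (336 and 343 CPM). A link of *Itga7* to these markers was not tested. On correction, *Itga6* had −0.52, 0.04 and −0.48 and *Itga7* −0.40, 0.00 and −0.40 in *Mtmr2* KO versus WT control, niacin-treated versus untreated *Mtmr2* KO and niacin-treated *Mtmr2* KO versus WT control.

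*Itgb4* (ENSMUSG00000020758, chromosome 11 from 115974709 to 116008412, + strand), the β4 subunit that pairs with α6 alone, was at 478, 547, 515 and 377 CPM in WT control. It was at 496, 300.1, 555 and 374 CPM in *Mtmr2* KO and at 205, 351, 267 and 234 CPM in niacin-treated mice. *Mtmr2* KO overlapped WT control, and the treated libraries lay below all of WT control and, apart from library 4506, below all of *Mtmr2* KO. The log2 fold change was −0.15 for *Mtmr2* KO versus WT control (95% interval −0.62 to 0.31), −0.71 for niacin-treated versus untreated *Mtmr2* KO (SE 0.22, −1.18 to −0.24, adjusted p = 0.106, BH-adjusted edgeR quasi-likelihood test) and −0.86 for niacin-treated *Mtmr2* KO versus WT control (SE 0.22, −1.33 to −0.39, adjusted p = 0.0847). The correction for GC content and length gave 0.07, −0.42 and −0.35. An antisense gene, *B230344G16Rik*, shares 537 bases of exon with *Itgb4*, and without known strand handling their reads cannot be told apart there. That gene had 381 counts in all 12 libraries together. *Lama2* likewise shares 631 bases of exon with an antisense gene, which is absent from the count table, and *Itga7* shares 9 with a gene on the other strand.

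*Dag1* (ENSMUSG00000039952, chromosome 9 from 108204634 to 108263958, − strand) encodes the single precursor of α- and β-dystroglycan, the laminin-binding and the membrane-spanning part of the receptor. It was at 1494, 1127, 1265 and 996 CPM in WT control, 1236, 366, 989 and 1004 CPM in *Mtmr2* KO and 646, 747, 494 and 330 CPM in niacin-treated mice. Of the *Mtmr2* KO libraries, 4502 lay far below WT control and 4503 just below it, while the highest treated library, at 747 CPM, lay below the lowest WT control library, at 996 CPM. The log2 fold change was −0.44 for *Mtmr2* KO versus WT control (95% interval −1.14 to 0.26), −0.70 for niacin-treated versus untreated *Mtmr2* KO (SE 0.33, −1.40 to 0.00) and −1.14 for niacin-treated *Mtmr2* KO versus WT control (SE 0.33, −1.85 to −0.43, adjusted p = 0.0995, BH-adjusted edgeR quasi-likelihood test). For *Dag1* the corrected values were −0.37, −0.53 and −0.90, the last being the furthest from 0 of the 10 genes in that comparison.

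**Figure D3:**
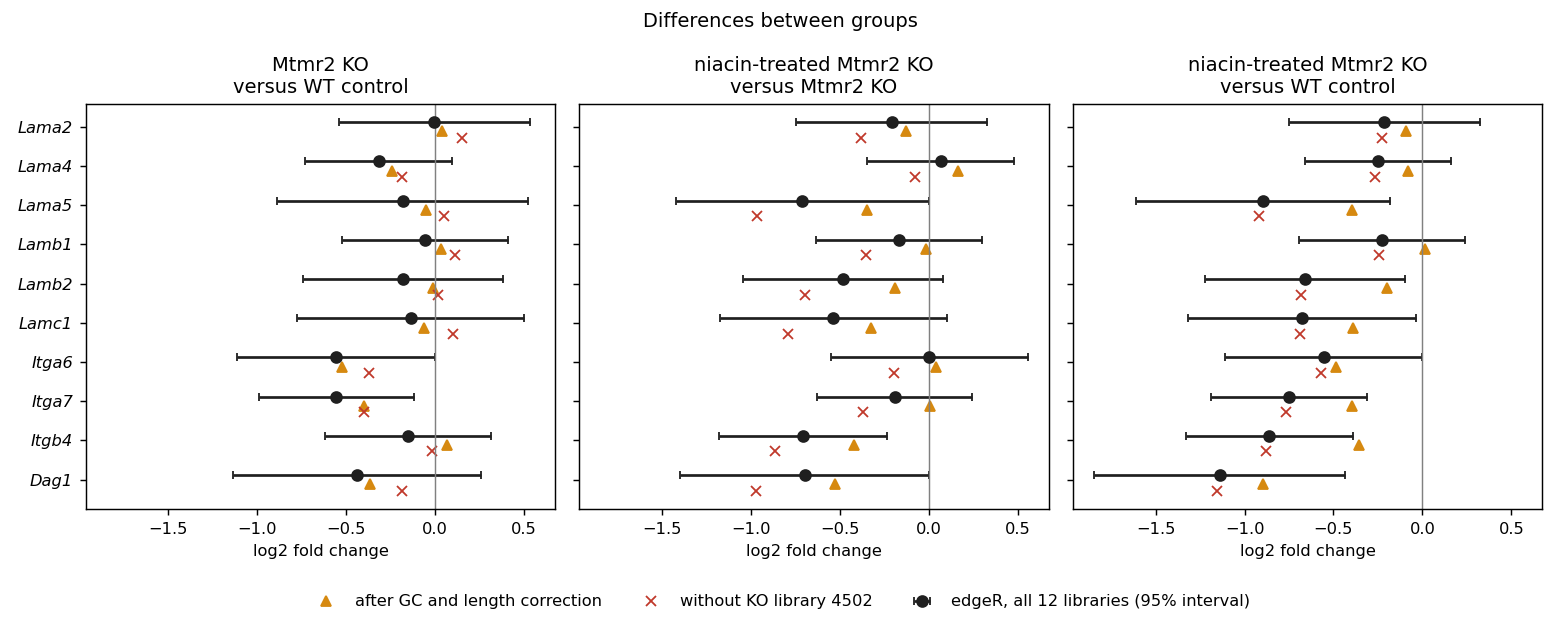
Circles give the log2 fold change of each gene (x axis) in the 3 comparisons with its 95% interval, triangles the value after correction of each library for GC content and transcript length, and crosses the value without library 4502. In niacin-treated Mtmr2 KO versus WT control the intervals of *Lama5*, *Lamb2*, *Lamc1*, *Itga6*, *Itga7*, *Itgb4* and *Dag1* end below 0, and the corrected values lie closer to 0 than the circles.

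For *Mtmr2* KO versus WT control, 0 of the 10 genes were called, against 0.267% of the 17257 genes tested, and 0 of 10 had all *Mtmr2* KO libraries below all WT control libraries, against 5.46% of those genes. The median log2 fold change of the 10 was −0.18, against 0.03 over all tested genes, and all 10 had a mean below WT control. That median was −0.00 without library 4502, −0.45 without library 4503 and −0.06 after the correction for GC content and length. *Itga6* and *Itga7* had an unadjusted p under 0.05 in edgeR, as did 2976 of the 17257 genes tested. No alternative called any of the 10 in this comparison, in fits that called 0.00% to 3.47% of all genes tested.

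For niacin-treated versus untreated *Mtmr2* KO, 0 of the 10 genes were called, against 1.43% of all tested genes, and 0 of 10 had all treated libraries below all untreated ones, against 3.40%. The median log2 fold change was −0.35, against −0.04 over all tested genes, with 8 of 10 below 0. The calls differed with library 4502 and with the tool. In edgeR without library 4502 the median was −0.54 and 5 genes were called, each lower with niacin, namely *Lama5* (log2 fold change −0.97), *Lamb2* (−0.70), *Lamc1* (−0.79), *Itgb4* (−0.86) and *Dag1* (−0.97), with adjusted p from 0.0114 to 0.0331 in edgeR's quasi-likelihood test, in a fit that called 23.6% of all genes tested. Without library 4503, in contrast, the median was −0.13 and 0 were called, in a fit that called 0.0746% of all genes tested. After the correction for GC content and length the median was −0.16 with 0 called, where 2.71% of genes were called. DESeq2 over all 12 libraries called *Itgb4* (adjusted p = 0.0388) where it called 5.88% of genes, and limma-voom with sample quality weights called *Itgb4* (0.0383) and *Dag1* (0.0367) where it called 11.6%.

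For niacin-treated *Mtmr2* KO versus WT control, 0 of the 10 genes were called, and so were 0.00% of all tested genes, although 4254 genes had an unadjusted p under 0.05, 7 of the 10 among them. All treated libraries lay below all WT control libraries for 6 of the 10, against 16.6% of all tested genes. The median log2 fold change was −0.67, against 0.02 over all tested genes. After the correction for GC content and length it was −0.37, with 9 of 10 below 0 and 0 called, in a fit that called 0.00% of all genes tested. The calls differed between fits, for a cause that was not tested. In edgeR on only these 2 groups, 7 genes were called, all lower with niacin, *Dag1* (adjusted p = 0.00427), *Itga7* (0.0037), *Itgb4* (0.00445), *Lamb2* (0.00762), *Lamc1* (0.0112), *Lama5* (0.0124) and *Itga6* (0.0413), where 33.9% of all genes tested were called. DESeq2 on these 2 groups called the same 7 where it called 33.9% of genes, DESeq2 over all 12 libraries called *Dag1*, *Itga7* and *Itgb4* where it called 7.38%, limma-voom with sample quality weights called those 7 and *Lama4* where it called 42.4%, and edgeR on all libraries but 4502, which is in neither group, called those 7 less *Itga6*, where it called 21.6%. EdgeR on all libraries without the filter on low counts called *Itgb4* alone (adjusted p = 0.0471) where it called 0.918%, and without library 4503 it called *Itga7* alone (0.0499) where it called 1.74%. *Lama2* and *Lamb1* were called in none of these fits.

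Ratios of 2 genes within a library do not depend on how libraries are scaled to each other. In all, 5 were compared, as log2 of the ratio of counts, in the 3 comparisons. They were not corrected for GC content and length, in which the 2 genes of a ratio can differ. Transcripts of *Itgb4* and *Itga6* are 60.0% and 48.9% G and C, and those of *Lamb2* and *Lamb1* 58.8% and 52.5%. Ratios given per length use merged exons. Their size depends on that choice, but their log2 differences between groups do not. Per length, *Lamb2* RNA was 0.812 to 1.16 times that of *Lamb1* in WT control, 0.708 to 1.17 times in *Mtmr2* KO and 0.529 to 0.818 times in niacin-treated mice, a mean log2 difference of −0.44 between the treated and WT control groups (exact permutation p = 0.0857, two-sided, n = 4 per group, adjusted 0.427 over 15 tests). *Itgb4* RNA was 0.596 to 0.943 times that of *Itga6* in WT control, 0.677 to 1.38 times in *Mtmr2* KO and 0.356 to 0.768 times in niacin-treated mice. The treated and untreated *Mtmr2* KO groups differed in this ratio by −0.72 on the log2 scale (exact permutation p = 0.0571, n = 4 per group, adjusted 0.427). *Lama4* RNA per length was close to that of *Lama2* in WT control (0.978 to 1.204 times) and in niacin-treated mice (0.954 to 1.23 times) and 0.672 to 1.04 times in *Mtmr2* KO, with a log2 difference of −0.31 between *Mtmr2* KO and WT control (exact permutation p = 0.0857, n = 4 per group, adjusted 0.427). *Lama5* over *Lama2* and *Itga7* over *Itga6* spread widely with niacin, from 0.0727 to 0.360 and from 0.136 to 0.282 times per length. All 15 comparisons of ratios had overlapping groups and an adjusted p of 0.427 or more in these exact tests. No exact p under 0.0286 can be reached with 4 mice per group, so a ratio could not pass the adjustment over 15 tests by itself. A difference in the makeup of the chains and subunits between the groups was thus neither shown nor excluded at this number of mice.

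**Figure D4:**
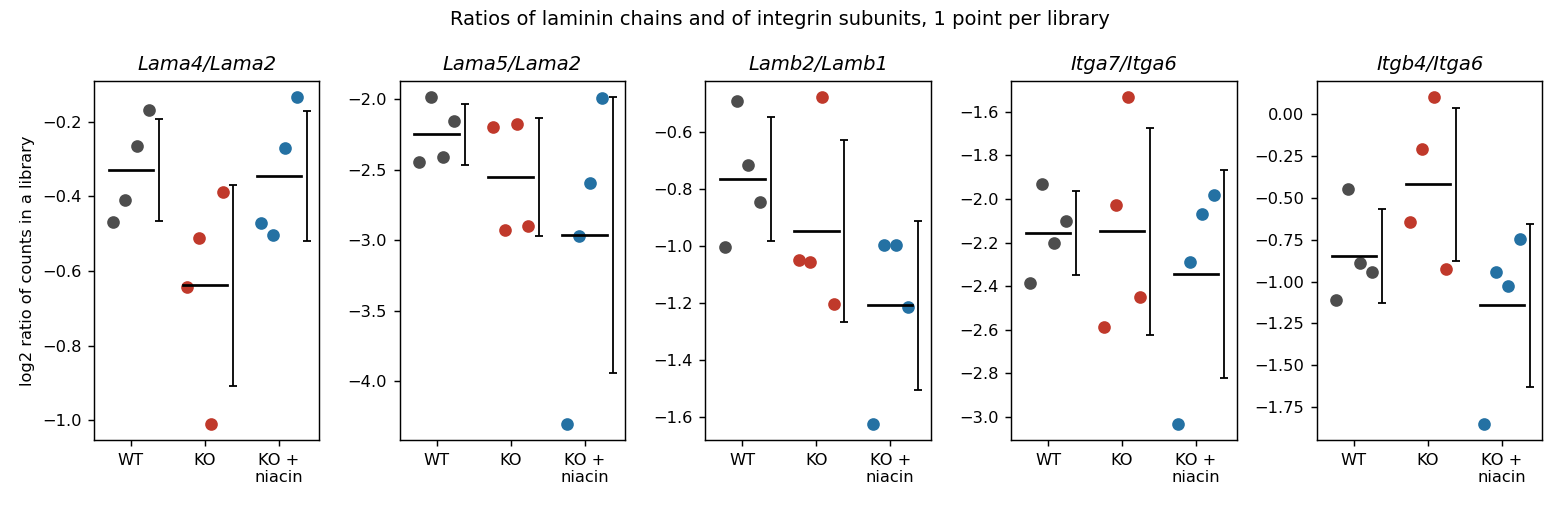
Each point is the log2 ratio of the counts of 2 genes in 1 library, with the group mean as a line and its SD as a bar (n = 4), for WT control (WT), Mtmr2 KO (KO) and niacin-treated Mtmr2 KO (KO + niacin). The groups overlap in every panel, and library 4505 lies lowest of all 12 in *Lama5*/*Lama2* at −4.30, *Lamb2*/*Lamb1* at −1.62, *Itga7*/*Itga6* at −3.03 and *Itgb4*/*Itga6* at −1.85.

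Across the 12 libraries the log2 levels of the 10 genes varied together to different degrees, described here without a test since the libraries differ in group, depth and base composition. Over the 45 pairs, Pearson's r had a median of 0.785 and ran from 0.225 (*Lama4* with *Lama5*) to 0.971 (*Lama4* with *Itga6*). Without library 4502 the median was 0.734 and the lowest value −0.03. *Lama2* went with *Lamb1* (0.944), and *Lamb2* with *Lamc1* (0.942), *Itga7* (0.904) and *Itgb4* (0.904), whereas *Lama2* and *Lama5* had 0.353. Outside the 10, the 2 genes most like *Dag1* were *Emc10* and *Mmp15* (both 0.989), those most like *Lamc1* were *Ext2* (0.987) and *Tmem248* (0.983), and those most like *Itga6* were *Arhgap1* (0.983) and *Lman2* (0.982). *Lamb2* was most like *Tbl1x* (0.983) and *Esyt1* (0.974), *Itgb4* most like *Mapk8ip3* (0.979) and *Pcdh17* (0.972), and *Itga7* most like *Ptprb* (0.979) and *Epas1* (0.969). *Lamb1* was most like *Secisbp2l* (0.979) and *Sema5a* (0.968), *Lama5* most like *Zfp598* (0.977) and *Gmeb2* (0.975), *Lama4* most like *Erc1* (0.976) and *Ezr* (0.973), and *Lama2* most like *Gpd1l* (0.971) and *Ddx6* (0.956). Without library 4502 these values stayed between 0.950 and 0.991.

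Of 83 further genes of laminins, their partners and receptors, 81 passed the filter. With all 12 libraries 0 of them were called between *Mtmr2* KO and WT control, 2 between niacin-treated and untreated *Mtmr2* KO and 0 between niacin-treated *Mtmr2* KO and WT control, and the shares of all genes called were those given above. In *Mtmr2* KO versus WT control, 9 were called by DESeq2 on all 12 libraries, which called 3.47% of all genes, and 5 by DESeq2 on the 2 groups (2.50%). In that comparison edgeR called 3 without the filter on low counts (1.01%), 3 without library 4501 (2.60%), 3 without library 4504 (1.54%) and 2 after the correction for GC content and length (1.18%). Between niacin-treated and untreated *Mtmr2* KO it called 6 without the filter (1.69%) and 4 without library 4504 (2.87%). The other laminin chains were far less abundant. *Lamc3*, a γ chain, was at 15.8 ± 2.28 CPM in WT control (SD, n = 4) and *Lama3* at 8.35 ± 1.67, and none of the 5 chains tested was called. *Lamc3* reached 95.5 CPM in 1 *Mtmr2* KO library and was at 3.78 to 8.76 CPM in niacin-treated mice.

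Of the 18 basement membrane partners, all 18 had a mean below WT control with niacin and in 12 the groups did not overlap, against 16.6% of all tested genes. The median log2 fold change was −0.63, and −0.40 after the correction for GC content and length. Against WT control 16 of 18 had a lower mean in *Mtmr2* KO (median −0.42), and against untreated *Mtmr2* KO 11 of 18 were lower with niacin (median −0.18). *Sparc*, a collagen-binding matrix protein, was the most abundant at 11070 ± 954 CPM in WT control and differed little (12100 ± 1800.0 in *Mtmr2* KO and 10700.0 ± 2331 with niacin). *Col4a1*, a chain of the collagen IV network of basement membranes, was at 1728 ± 286 CPM in WT control, against 1465 ± 752 in untreated and 690 ± 208 in treated *Mtmr2* KO (n = 4 each). Its treated libraries, up to 931 CPM, lay below the lowest WT control library at 1412 CPM. Its log2 fold change against WT control was −1.32 (SE 0.34, adjusted p = 0.0847, BH-adjusted edgeR quasi-likelihood test). *Hspg2*, which encodes perlecan, the heparan sulfate proteoglycan of basement membranes, was at 1427 ± 414, 1049 ± 477 and 718 ± 57.3 CPM in the 3 groups, a log2 fold change of −0.99 with niacin against WT control (SE 0.32, adjusted p = 0.115). Corrected, the last values were −0.88 for *Col4a1* and −0.50 for *Hspg2*.

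The partner subunit of α6 and α7, *Itgb1*, was at 772 ± 62.2 CPM in WT control, 785 ± 82.9 in untreated and 859 ± 108 in niacin-treated *Mtmr2* KO (SD, n = 4), so that it did not follow the lower means of *Itga6*, *Itga7* and *Itgb4*. Its log2 fold change was 0.15 with niacin against WT control (SE 0.15, adjusted p = 0.52, BH-adjusted edgeR quasi-likelihood test). *Itgb8* was at 369 ± 64.1, 370 ± 95.1 and 463 ± 77.8 CPM. *Sdc3*, a heparan sulfate proteoglycan of the cell surface, was at 354 ± 37.7, 415 ± 166 and 193 ± 55.3 CPM, with a log2 fold change of −1.11 between treated and untreated *Mtmr2* KO (SE 0.27, BH-adjusted p = 0.0624 in edgeR) that passed the test after the correction for GC content and length (−0.82, adjusted p = 0.0386). The 11 other receptors as a list had medians of −0.20, 0.13 and −0.21 in *Mtmr2* KO versus WT control, niacin-treated versus untreated *Mtmr2* KO and niacin-treated *Mtmr2* KO versus WT control, and 0 were called, and corrected medians of −0.17, 0.11 and −0.19.

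Inside the cell, dystroglycan is linked to dystrophin-related proteins, and 15 of 16 genes of this complex were tested. *Drp2*, which with periaxin forms the dystroglycan complex of the myelinating Schwann cell, was at 2564 ± 174 CPM in WT control, 5182 ± 2152 in untreated and 2840 ± 431 in niacin-treated *Mtmr2* KO (SD, n = 4). All 4 *Mtmr2* KO libraries, at 3558 CPM or more, lay above both other groups. Their level was 1.02 higher than in WT control on the log2 scale (SE 0.25, adjusted p = 0.0936, BH-adjusted edgeR quasi-likelihood test), and the log2 fold change was −0.87 for niacin-treated against untreated *Mtmr2* KO (SE 0.25, adjusted p = 0.0938). Neither passed the test, but the first did after the correction for GC content and length (1.08, adjusted p = 0.0456 in edgeR). *Prx*, the gene of periaxin, was at 5899 ± 539, 6631 ± 1228 and 4587 ± 1075 CPM, and *Utrn*, the gene of utrophin, at 1056 ± 177, 1095 ± 110 and 1001 ± 187 CPM. The complex as a list had medians of 0.02, 0.01 and −0.05 in the 3 comparisons, and 0.01, −0.05 and 0.02 when corrected.

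Laminin binds to a sugar chain of dystroglycan, and 17 genes of dystroglycan glycosylation were tested. *Pomgnt1* was at 110 ± 7.43, 91.1 ± 19.5 and 77.2 ± 11.3 CPM in WT control, *Mtmr2* KO and niacin-treated mice, and *B4gat1* at 74.8 ± 5.44, 68.7 ± 23.9 and 53.2 ± 14.4 CPM. The list had medians of −0.11, 0.02 and −0.26, and of −0.07, 0.01 and −0.08 when corrected.

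Of the 16 adaptors and effectors of integrins, 15 were tested and 0 were called. *Ilk*, the integrin-linked kinase gene, had 25 counts in all libraries together and was not tested. With counting program and strand setting unknown, low *Ilk* RNA and reads lost in counting cannot be told apart. *Plec*, the gene of plectin, which ties β4 integrin to intermediate filaments, was at 511 ± 81.7 CPM in WT control, 520 ± 129 in untreated and 330 ± 32.3 in niacin-treated *Mtmr2* KO (SD, n = 4), with treated libraries below all others and log2 fold changes of −0.65 against *Mtmr2* KO (SE 0.19, adjusted p = 0.0908, BH-adjusted edgeR quasi-likelihood test) and −0.63 against WT control (SE 0.19, adjusted p = 0.104). Corrected, these were −0.37 and −0.15. *Cdc42*, a small GTPase of cell polarity, was at 653 ± 58.1, 674 ± 96.2 and 826 ± 90.6 CPM and *Parva*, an adaptor of the integrin-linked kinase complex, at 465 ± 34.8, 438 ± 76.0 and 389 ± 68.1 CPM. The list had medians of −0.04, −0.30 and −0.30, and of −0.04, −0.22 and −0.14 when corrected.

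**Figure D5:**
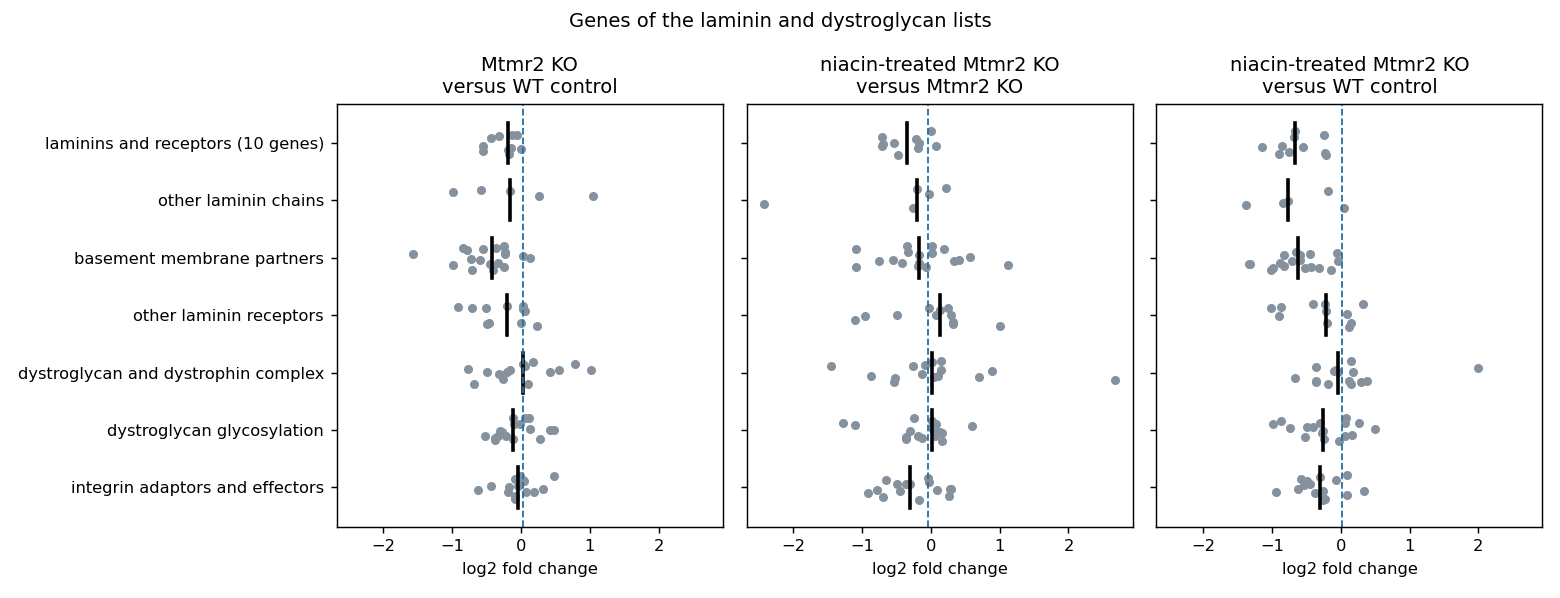
Each point is the log2 fold change of 1 gene (x axis) in 1 of the 3 comparisons, by list, with the list's median as a black bar and the median of all tested genes as a dashed line. The 10 laminin and receptor genes have medians of −0.18, −0.35 and −0.67.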

How the data were processed

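Sciatic nerve polyA RNA of 12 mice was sequenced as paired reads on an Illumina HiSeq. Per the labels, CASAVA 1.9, STAR and DESeq2 were used with GRCm38 (mm10). The authors deposited read counts per Ensembl gene, whole numbers without normalization, and tables of their own fold changes and p-values, which were not used except for gene symbols. Counting program, annotation release and strand setting were not given in the sources used here. Genes were joined by Ensembl identifier to GENCODE M21 for coordinates and lengths.

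Counts were fitted in R 4.3.3 with edgeR 4.0.16 (TMM, filterByExpr with the 3 groups, 1 quasi-likelihood model over 12 libraries without covariates), two-sided, with Benjamini-Hochberg adjustment over 17257 genes and calls at an adjusted p under 0.05. Intervals are 95% from the t distribution of the fit. Log2 CPM used a prior count of 2 and ratios one of 0.5. Exact permutation tests used all 70 divisions of 8 libraries. Alternatives were DESeq2 1.42.0, limma-voom 3.58.1 with quality weights, other size factors, filters and groups, *Xist* as covariate and each library left out. The correction for GC content and length by splines was chosen after seeing the data. Scripts were tested on simulated data. Depth was 20763951 to 33191106 counts per library.

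The 10 genes and the gene and marker lists were chosen with earlier results of these data known. Besides the 10, the text names the 3 most abundant genes in WT control and each called gene of every pathway list, the 2 genes most like each of the 10, and *Mtmr2*. *Ilk* and *Xist* are named as exceptions, after their values were seen. Some genes that this rule picks, among them the 2 called, are not reported here.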

Additional observations from a re-analysis of the deposited data

Results flagged for a closer look

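Of the 45 sets of 4 libraries examined (10 genes and 5 ratios in 3 groups), 2 held a library whose gap to the nearest other library exceeded Dixon's 95% critical value for 4 samples, which chance gives for about 1 set in 20. *Lama5* in niacin-treated *Mtmr2* KO library 4505 was at 28.3 CPM, below 61.2 to 67.5 CPM in the other 3 treated libraries (gap over range 0.841). *Lamb2* in WT control library 4500 was at 397 CPM, below 494 to 510 CPM in the other 3 WT control libraries (0.853).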

How the results depend on the processing

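The number of the 10 genes called in *Mtmr2* KO versus WT control was 0 under every alternative run, in fits that called 0.00% to 3.47% of all genes tested. Percentages from here on are the share of all genes tested that the same fit called. In niacin-treated versus untreated *Mtmr2* KO it was 0 with all libraries, 1 with DESeq2 on all 12 (5.88%), 2 with limma-voom (11.6%) and 0 to 5 with 1 library left out, the 5 without library 4502 (23.6%). In niacin-treated *Mtmr2* KO versus WT control it was 0, but 3 with DESeq2 on all 12 libraries (7.38%), 7 with DESeq2 (33.9%) and 7 with edgeR (33.9%) on only the 2 groups, and 8 with limma-voom (42.4%). It was 1 without the filter on low counts (0.918%) and 0 to 6 with 1 library left out, with 6 without 4502 (21.6%) and 1 without 4503 (1.74%). Of the 81 further genes, 0 were called in the first comparison, but 9 and 5 with DESeq2 on all and on 2 groups (3.47% and 2.50%) and 3 without the filter (1.01%). After the GC and length correction 2 were called (1.18%), and 0 to 3 with 1 library left out, with 3 without 4501 (2.60%) and 3 without 4504 (1.54%). In the second, 2 were called, but 11 with DESeq2 on all libraries (5.88%), 3 with DESeq2 on 2 groups (2.56%) and 14 with limma-voom (11.6%). The number was 6 without the filter (1.69%), 3 after the GC and length correction (2.71%), 0 with edgeR on 2 groups (0.00%) and 0 with *Xist* as a covariate (0.290%). With 1 library left out it was 26 without 4502 (23.6%), 4 without 4504 (2.87%) and 0 without any 1 of the other 10 libraries (0.00% to 0.777%). In the third, 0 were called, but 14 and 39 with DESeq2 on all and on 2 groups (7.38% and 33.9%), 49 with limma-voom (42.4%) and 36 with edgeR on 2 groups (33.9%). Without the filter 3 were called (0.918%), and 0 to 25 with 1 library left out, with 25 without 4502 (21.6%) and 2 without 4503 (1.74%). Fits of the third comparison without any 1 of the other libraries called 0.00% to 0.324% of all genes. The causes were not tested. Log2 fold changes changed sign in 10 cases of a gene in a comparison, with the alternative value between −0.24 and 0.15 in each. For *Mtmr2* KO versus WT control, *Lama2* turned to 0.0016 with limma-voom, 0.0051 with DESeq2 size factors and 0.038 after the GC and length correction, and ran from −0.13 to 0.15 with 1 library left out. *Lamb1* turned to 0.0008 with limma-voom and 0.031 after the correction and ran from −0.15 to 0.11, and *Itgb4* turned to 0.067 after the correction. With 1 library left out *Lama5* ran from −0.44 to 0.047, *Lamb2* from −0.49 to 0.017 and *Lamc1* from −0.45 to 0.10, each highest without 4502 and lowest without 4503. For niacin-treated versus untreated *Mtmr2* KO, *Lama4* turned to −0.11 with limma-voom and ran from −0.076 to 0.18 with 1 library left out. *Itga6* turned to −0.24 with limma-voom and −0.0047 with DESeq2 size factors and ran from −0.20 to 0.17. After the correction *Itga7* turned to 0.0043 in that comparison and *Lamb1* to 0.014 in niacin-treated *Mtmr2* KO versus WT control. A prior count of 5 in place of 0.5 moved no ratio beyond its spread. No paired analysis was possible because the groups share no replicate numbers. The 4 mice per group limit precision, since no exact p under 0.0286 can be reached.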
